A study of Mus musculus with 14 samples.

Results

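The inflammasome and pyroptosis genes described here are 9 listed genes of 33939 in the deposited table, and all 9 were found by symbol and Ensembl identifier. They comprise the sensors *Nlrp3*, *Nlrc4* and *Nlrp1b*, the NLRP3 partner *Nek7*, the adaptor *Pycard* (the gene of the protein ASC), the caspase genes *Casp1*, *Casp4* and *Casp8*, and the pore-forming executor *Gsdmd*. They were measured by RNA-seq in CD11b+ microglia/macrophages, which were sorted with magnetic beads from mouse brains at 3 days after traumatic brain injury (TBI). Ctrl mice had the genotype Cx3cr1-CreER+/- and cKO mice the genotype Cx3cr1-CreER+/-;Nhe1flox/flox, so that the Cre transgene was common to both and the floxed alleles were present in the cKO. All mice were males on the C57BL/6 strain, 8 to 12 weeks old, and all received tamoxifen. The contralateral (CL) and ipsilateral (IL) hemispheres of injured brains gave 4 libraries each in Ctrl and 3 libraries each in cKO, from 8 mouse numbers, 6 of which gave both hemispheres. The cKO numbers 784 (IL alone) and 788 (CL alone) were taken as different mice, which the labels do not settle and which is more cKO mice than the study counts. The CL hemisphere belongs to an injured brain and is not a sham control. Cx3cr1-driven Cre acts in *Cx3cr1*-expressing macrophages as well as in microglia. The study left a waiting period between tamoxifen and injury, in part so that peripheral *Cx3cr1*+ monocytes were replenished, to minimise effects on infiltrating myeloid cells.

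Inflammasomes are cytosolic complexes in which a sensor of danger or infection recruits, directly or through the adaptor ASC, the protease caspase-1. Caspase-1 matures the cytokines IL-1β and IL-18 and cuts gasdermin D, whose freed part forms pores in the plasma membrane and leads to the lytic death called pyroptosis. Microglia and macrophages are main carriers of the NLRP3 inflammasome in the injured brain, and its activity is set by assembly and cleavage of proteins, which transcript levels do not measure.

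The deposited values are CPM, reads per 1000000 reads assigned to genes. The reads behind a library, estimated from the step between its low values, ranged from 12.2 to 41.6 M with a median of 34.2 M. The 5 general CD11b+ myeloid markers summed to between 6930 and 15570 CPM in every library, while the sums stayed at or under 8.66 CPM for 5 T and NK cell, 3 B cell and 3 neuron markers. Those of 4 oligodendrocyte markers reached 184 CPM and those of 3 endothelial markers 149.5 CPM. The libraries of Ctrl mouse 3546 stood apart from those of the other Ctrl mice in 80 cytosolic ribosomal protein genes, which summed to 2673 CPM in CL and 1614 CPM in IL, against 4021 to 5146 CPM in the other 6 Ctrl libraries. Fold changes are log2 differences between groups of log2(CPM + 1) after scaling of the libraries by a trimmed mean, with standard errors (SE) and Benjamini-Hochberg adjusted p from limma, and the calls needed both a 1.2-fold change or more and an adjusted p not above 0.05. All 9 genes passed the filter on low values in each comparison.

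The comparison of hemispheres asks how the injured side differed from the other side at 3 days. *Nlrp3* was called higher in IL in both genotypes. *Pycard* was called higher in IL in cKO, a call lost with the mouse as a block. *Gsdmd* was lower in IL in Ctrl without overlap. It was called there with the mouse as a block, but not in the unblocked fit on the scaled values. In Ctrl 1 of the 9 genes was called, where 6.56% of the 16376 genes tested were called, and in cKO 2 of the 9 were called, where 22.4% of 16758 genes passed. When the mouse was added as a block, 2 of 9 were called in Ctrl (background 20.5%) and 1 of 9 in cKO (background 13.8%). For a list of 9 genes, these counts are near the share of all genes called. Neither cKO comparison with Ctrl called any of the 9.

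**Figure D1:**
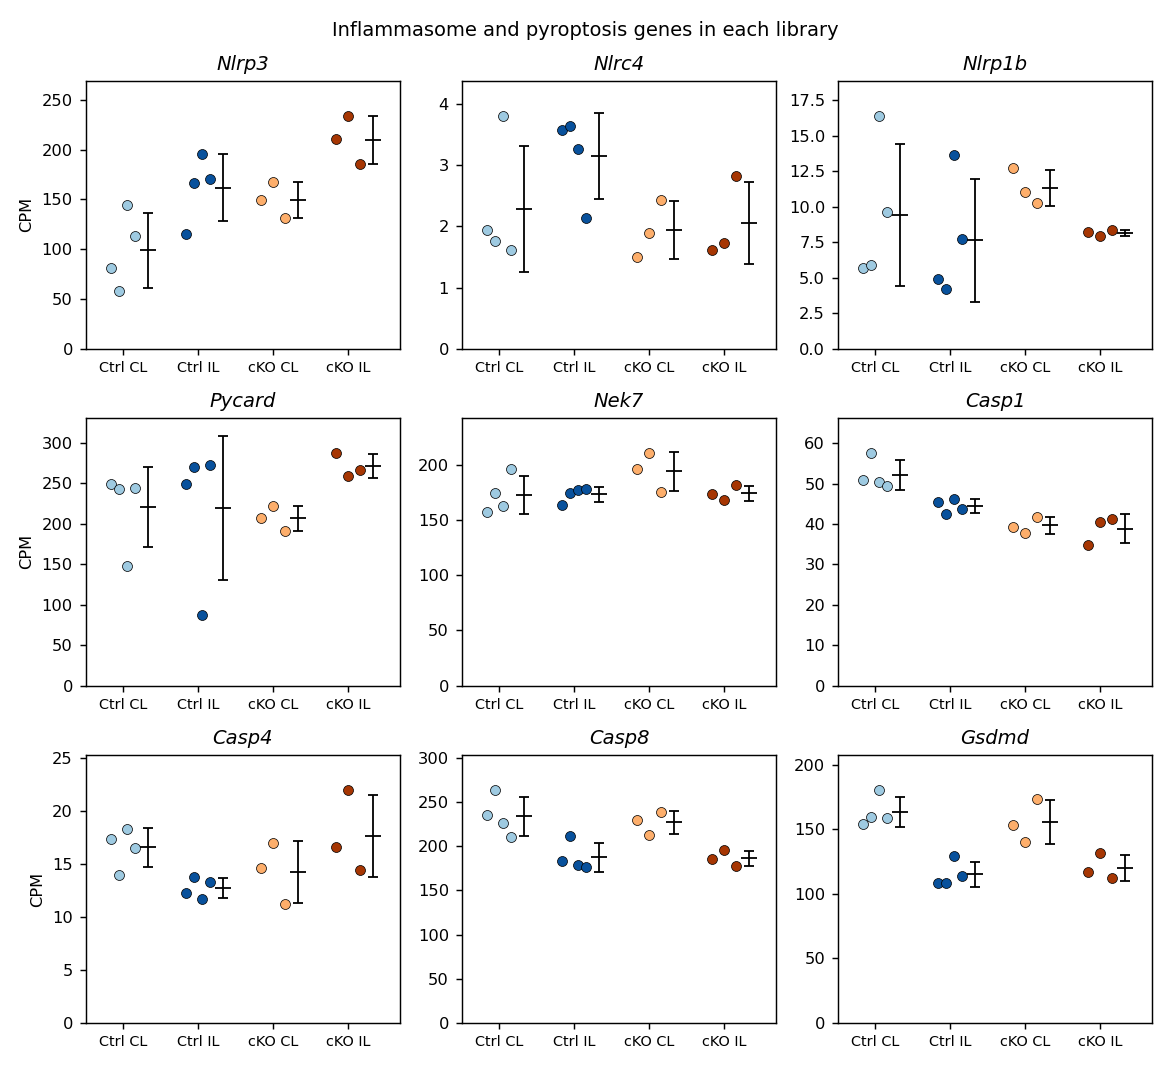
CPM of each of the 9 genes (vertical axes start at 0) in the 14 libraries, grouped by genotype and hemisphere, with 1 point per library and the group mean ± SD beside the points. *Nlrp3* has its lowest point, 57.9 CPM, in Ctrl CL and its highest, 234 CPM, in cKO IL, and 1 Ctrl mouse holds the low *Pycard* points of 147 and 87.2 CPM.

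*Nlrp3* encodes the sensor that responds to potassium efflux, lysosomal damage and many other disturbances, and its transcription is the priming step of this inflammasome. It lies on chromosome 11 (GRCm38, 59541568 to 59566956, plus strand). The stretch before its start is shown because induction through NF-kappaB is the known priming route. Capitals mark a match to the kappaB motif, at bases -186 to -177 from the first of 2 RefSeq starts. The window before the other start (chr11:59542436-59542685) held no match to any motif searched. The sequence is from RefSeq, GRCm38.p6, chr11:59541319-59541567, plus strand, 5′ to 3′.
Nlrp3: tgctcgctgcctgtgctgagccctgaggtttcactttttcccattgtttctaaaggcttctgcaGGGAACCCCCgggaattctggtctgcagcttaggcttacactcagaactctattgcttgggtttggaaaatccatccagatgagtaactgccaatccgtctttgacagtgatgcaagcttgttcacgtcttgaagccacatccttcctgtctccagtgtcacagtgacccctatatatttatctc
Such a match was present in 3.90% of the 250-base windows before 32851 RefSeq starts, on either strand, and it describes the letters only.

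In Ctrl CL, *Nlrp3* stood at 80.9, 57.9, 144 and 113 CPM in mice 3541, 3545, 3546 and 3551. In Ctrl IL the same mice had 115, 166, 195 and 170 CPM. In cKO CL, mice 788, 791 and 3592 had 149, 168 and 131 CPM, and in cKO IL, mice 784, 791 and 3592 had 210, 234 and 185 CPM. Every mouse with both hemispheres had more *Nlrp3* in IL than in CL, by 0.47 to 1.60 on the log2 scale in 6 of 6 mice. In CPM the Ctrl IL and Ctrl CL libraries overlapped, while on the scaled log2 values of the fit they did not. The cKO IL libraries lay above all cKO CL libraries on both scales.

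*Nlrp3* rose in IL against CL in Ctrl (log2 fold change 0.83, SE 0.22, limma adjusted p = 0.0496) and in cKO (0.57, SE 0.15, adjusted p = 0.0294). With the mouse as a block, the limma adjusted p was 0.0184 in Ctrl and 0.0237 in cKO. In the unblocked limma fit the Ctrl call was near the threshold. It was lost with upper-quartile scaling, on the deposited CPM, with pseudocounts of 0.1 and 0.5 and without the filter, with adjusted p from 0.0504 to 0.128. The call held without the CL library of mouse 3546 (adjusted p = 0.0282) and was lost when any other Ctrl library was left out, with fold changes from 0.67 to 0.90 and adjusted p from 0.0617 to 0.140. The cKO call was lost without the CL library of mouse 788 (limma adjusted p = 0.0601) or 3592 (0.0539) and without the IL library of mouse 784 (0.0934) or 791 (0.0992). The order of the group means was 98.9 ± 37.6 CPM in Ctrl CL (SD, n = 4), 149 ± 18.3 in cKO CL (n = 3), 162 ± 33.7 in Ctrl IL (n = 4) and 210 ± 24.3 in cKO IL (n = 3), and each neighbouring pair in this order overlapped.

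*Nlrp3* was higher in cKO than in Ctrl by 0.66 in CL (SE 0.23, unadjusted p = 0.0153, limma adjusted p = 0.332) and by 0.41 in IL (SE 0.16, unadjusted p = 0.0344, limma adjusted p = 0.486). Neither difference passed the adjusted threshold, and Ctrl and cKO libraries overlapped in both hemispheres. The IL against CL differences of the genotypes differed by -0.25 (SE 0.30, 95% interval -0.88 to 0.38, limma adjusted p = 0.9999), so that a difference in response of this size was not detectable.

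Among the 9752 other genes with a mean of at least 3 on the log2 scale, those whose centred log2 values followed *Nlrp3* most closely over the 14 libraries were *Nr4a1* and *Fyn*, with mean absolute differences of 0.18 for both. *Nr4a1* (an orphan nuclear receptor induced soon after stimulation) had group means of 542, 1037, 994 and 1580 CPM in the Ctrl CL and IL and then the cKO CL and IL libraries. Its higher level in IL follows from this choice and is no further result. *Nr4a1* is also an immediate early gene, a class that cells induce during dissociation, so 8 others (*Fos*, *Jun*, *Junb*, *Egr1*, *Dusp1*, *Ier2*, *Atf3* and *Zfp36*, chosen after the results were seen) were set beside it. Their sum was 24180 to 45750 CPM in CL and 20070 to 26000 CPM in IL over both genotypes, ranges that overlap, with the lower values in IL. Between genotypes the direction in CL was that of *Nlrp3* (overlapping ranges), with sums of 24180 to 37050 CPM in Ctrl CL and 33490 to 45750 CPM in cKO CL, and so it was in IL, with 20070 to 24010 CPM in Ctrl IL and 22310 to 26000 CPM in cKO IL. None of the 8 was called between genotypes, where 0.658% of all genes were called in IL and 0.875% in CL. Of the 8, *Fos* and *Jun* fell in IL in cKO (22.4% of all genes called) and none was called in Ctrl by limma (6.56%). The difference of *Jun* was -1.144 in Ctrl (SE 0.35, limma adjusted p = 0.0872) and -1.155 in cKO (SE 0.265, adjusted p = 0.0180). That of *Fos* was -0.44 in Ctrl and -0.85 in cKO. The part of dissociation in the *Nlrp3* differences was not tested.

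Marker levels of other cell types and of homeostatic microglia were set beside the hemispheres. The 8 neutrophil markers (among them *S100a8*, *S100a9* and *Retnlg*) summed to 467 to 6106 CPM in Ctrl CL and 146 to 844 CPM in Ctrl IL, and to 459 to 1307 CPM in cKO CL and 190 to 294 CPM in cKO IL. In Ctrl none of them was called, and in cKO 5 of 8 were called lower in IL by limma. Of all genes tested, 6.56% were called between hemispheres in Ctrl and 22.4% in cKO, which applies to each such count in this paragraph. The 5 homeostatic microglia markers summed to 9027 to 13500 CPM in CL and 4051 to 5566 CPM in IL over both genotypes, and all 5 fell in IL in each. Of 6 monocyte markers, 3 rose in IL in each genotype and none was called lower. Their sum had a median of 268 CPM in Ctrl CL and 235 CPM in Ctrl IL (range 76.6 to 662 and 141 to 340 CPM), and of 119 CPM in cKO CL and 179 CPM in cKO IL. In Ctrl, *Ly6c2* was lower in IL in 4 of 4 mice in CPM, while *Ccr2*, *Vcan* and *F10* were higher in IL in each. *Plac8* and *Chil3* differed in direction between the Ctrl mice. In cKO, *Ly6c2* was higher in IL in mouse 791 (8.02 CPM in CL, 19.7 in IL) and lower in mouse 3592 (15.6 in CL, 13.6 in IL). The 5 myeloid markers summed to 9764 to 15570 CPM in Ctrl CL and 6930 to 11780 CPM in Ctrl IL, and to 13590 to 14680 CPM in cKO CL and 9422 to 9804 CPM in cKO IL, with 1 of 5 called lower in IL in each genotype. The 3 astrocyte markers summed to 8.69 to 19.38 CPM in CL and 24.96 to 52.9 CPM in IL without overlap, and 1 of 3 was called higher in IL in each genotype. In cKO 1 of 4 oligodendrocyte markers was called higher in IL, and in Ctrl 1 of 2 T and NK cell markers tested was called lower in IL. None of the 8 neutrophil, 5 microglia, 6 monocyte and 3 astrocyte markers was called between cKO and Ctrl. Of all genes tested, 0.658% were called between genotypes in IL and 0.875% in CL. In bulk libraries like these, fewer cells of a type and less RNA per cell cannot be told apart, and the part that such shifts play in the differences of the 9 genes was not tested.

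**Figure D2:**
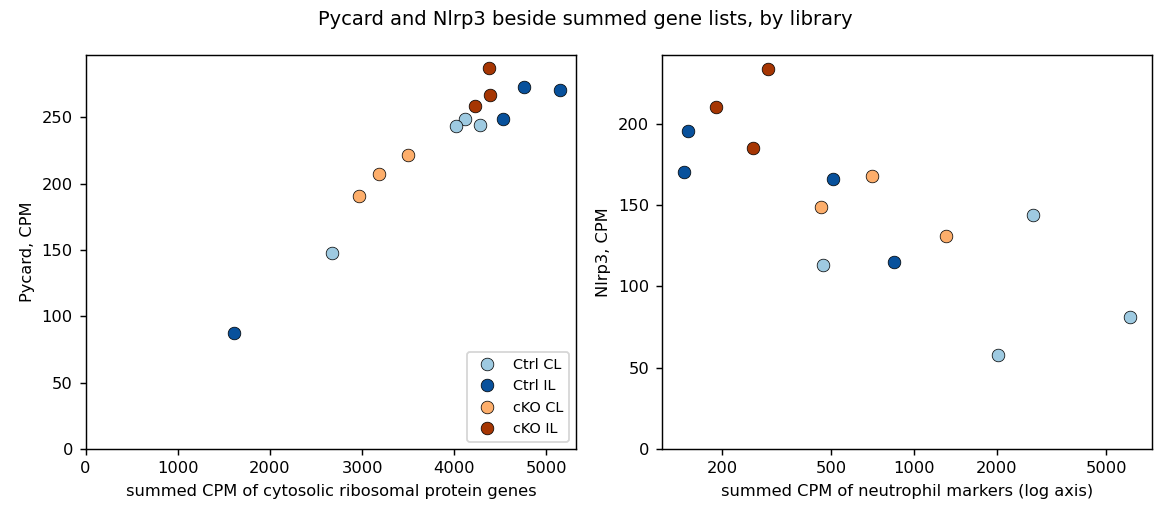
Left, *Pycard* (CPM) against the summed CPM of 80 cytosolic ribosomal protein genes, and right, *Nlrp3* (CPM) against the summed CPM of 8 neutrophil markers on a log axis, with 1 point per library coloured by group. The Ctrl IL library with the lowest ribosomal sum, 1614 CPM, has the lowest *Pycard* value, 87.2 CPM, and the Ctrl CL library with the highest neutrophil sum, 6106 CPM, has 80.9 CPM of *Nlrp3*.

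*Nlrc4* encodes the sensor that NAIP proteins activate on contact with bacterial flagellin and secretion needles. It was low, between 1.49 and 3.81 CPM in all 14 libraries. Its means were 2.28 ± 1.03 CPM in Ctrl CL, 3.16 ± 0.70 in Ctrl IL (SD, n = 4 each), 1.94 ± 0.47 in cKO CL and 2.06 ± 0.68 in cKO IL (n = 3 each). It was not called in any comparison, and the groups overlapped. Its lowest adjusted p was that of Ctrl IL against CL (log2 fold change 0.43, SE 0.255, limma adjusted p = 0.388).

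*Nlrp1b* encodes the mouse sensor known for its response to anthrax lethal factor. It stood at 5.65, 5.87, 16.4 and 9.64 CPM in Ctrl CL and 4.86, 4.21, 13.7 and 7.75 CPM in Ctrl IL, in mice 3541, 3545, 3546 and 3551. Ctrl mouse 3546 was the highest of its group in both hemispheres. The cKO libraries lay between 10.3 and 12.7 CPM in CL and between 7.92 and 8.34 CPM in IL, without overlap. Each of the 6 paired mice had less *Nlrp1b* in IL, by 0.12 to 0.33 on the log2 scale, yet neither comparison called it (in Ctrl -0.21, SE 0.33, limma adjusted p = 0.797; in cKO -0.35, SE 0.15, adjusted p = 0.135). Its transcripts share stretches of 84.2% identity over 2214 bases with the neighbouring *Nlrp1a*, so that reads may be split between these copies. *Nlrp1a* itself was lower in IL in the 6 mice and was not called either (in cKO -0.59, SE 0.19, limma adjusted p = 0.0555).

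*Nek7* encodes the kinase-family protein that bridges NLRP3 subunits. It kept to 157 to 210 CPM over all libraries. Its means were 173 ± 17.2 CPM in Ctrl CL and 173 ± 6.85 in Ctrl IL (SD, n = 4 each), 194 ± 17.7 in cKO CL and 174 ± 7.03 in cKO IL (n = 3 each). None of the comparisons called it. The 95% interval of the IL against CL difference was -0.22 to 0.39 in Ctrl and -0.30 to 0.16 in cKO on the log2 scale.

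*Pycard* encodes ASC, which polymerises into the speck that links sensors to caspase-1. In Ctrl CL it stood at 249, 243, 147 and 244 CPM and in Ctrl IL at 249, 271, 87.2 and 273 CPM, in mice 3541, 3545, 3546 and 3551. Both libraries of mouse 3546 were far under those of the other Ctrl mice, and the remaining 6 Ctrl libraries kept to 243 to 273 CPM. In cKO CL, mice 788, 791 and 3592 had 208, 221 and 191 CPM, and in cKO IL, mice 784, 791 and 3592 had 287, 259 and 267 CPM, without overlap.

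*Pycard* rose in cKO IL against cKO CL (log2 fold change 0.48, SE 0.11, limma adjusted p = 0.0160). With the mouse as a block, in which the unpaired mice 784 and 788 carry no weight, the difference was 0.46 (SE 0.14, limma adjusted p = 0.0545) and not called. The limma call was also lost without the IL library of mouse 784 (adjusted p = 0.0740) or of mouse 791 (0.0602). In Ctrl the difference was -0.04 (SE 0.42, limma adjusted p = 0.981), and without both libraries of mouse 3546 it was 0.20 (SE 0.17, adjusted p = 0.527). The cKO IL against Ctrl IL difference of 0.45 (SE 0.43, limma adjusted p = 0.890) became -0.02 (SE 0.11, adjusted p = 0.955) without the IL library of mouse 3546.

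The genes nearest to *Pycard* in pattern were the ribosomal protein genes *Rpl8* and *Rpl23a*, with mean absolute differences of 0.06 and 0.07 on the log2 scale over 14 libraries. Of 78 cytosolic ribosomal protein genes tested in cKO IL against cKO CL, 54 were called higher and 1 lower (22.4% of all genes called). In Ctrl IL against CL, with mouse 3546 included, 0 of 78 were called higher and 1 lower (6.56% of all genes). The median log2 fold change of these genes was 0.57 in cKO and -0.02 in Ctrl. The ribosomal sum was 2969 to 3493 CPM in cKO CL and 4230 to 4387 CPM in cKO IL. What *Pycard* shares with this sum was not tested. *Pycard* also overlaps the annotated *Gm45205* on the opposite strand by 485 exonic bases, and the library kit does not mark strand.

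**Figure D3:**
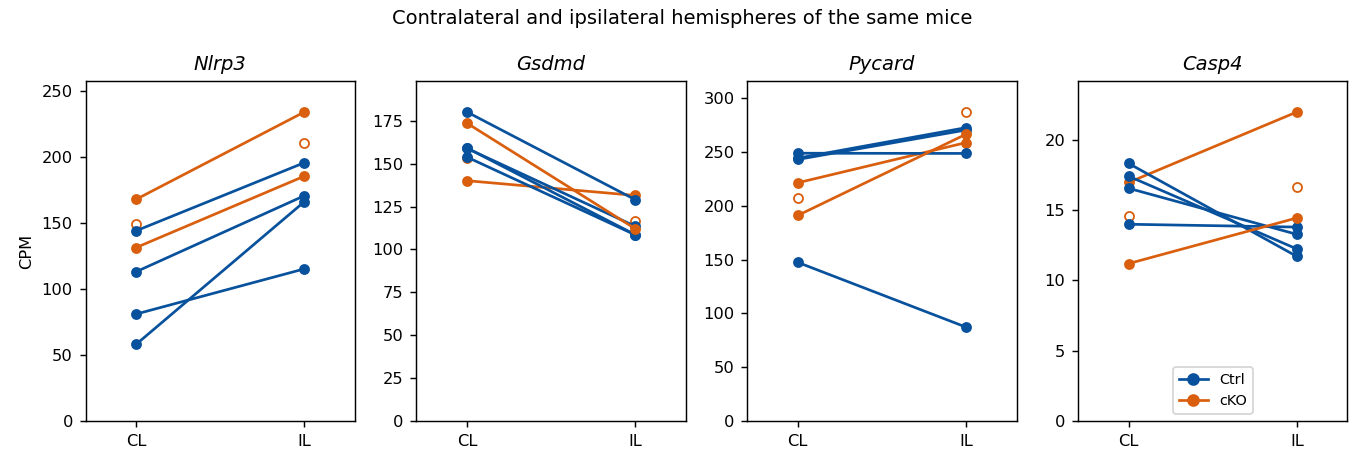
CPM of *Nlrp3*, *Gsdmd*, *Pycard* and *Casp4* in the CL and IL hemispheres, with lines joining libraries of the same mouse (4 Ctrl and 2 cKO mice) and open points for the 2 cKO mice with 1 hemisphere each. *Nlrp3* goes up in 6 of 6 mice, and *Pycard* falls from 147 to 87.2 CPM in Ctrl mouse 3546.

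*Casp1* encodes the protease that inflammasomes activate, and *Casp4* (also known as caspase-11) the one that binds bacterial lipopolysaccharide directly in the non-canonical pathway. They are neighbours on chromosome 9 (GRCm38, 5298517 to 5307265 and 5308828 to 5336783, both on the plus strand), and their upstream stretches are shown to set them side by side. Capitals mark matches to the kappaB motif, which in *Casp4* are a pair of overlapping ones, and *Casp1* held no match to the motifs searched. The sequences are from RefSeq, GRCm38.p6, plus strand, 5′ to 3′, at chr9:5298267-5298516 and chr9:5308599-5308827, the latter without the 21 bases before the RefSeq start that are annotated as exonic. Counted from the RefSeq starts, which lie after the annotated start of the gene, the *Casp4* pair spans bases -93 to -83 from the first and -104 to -94 from the other.
Casp1: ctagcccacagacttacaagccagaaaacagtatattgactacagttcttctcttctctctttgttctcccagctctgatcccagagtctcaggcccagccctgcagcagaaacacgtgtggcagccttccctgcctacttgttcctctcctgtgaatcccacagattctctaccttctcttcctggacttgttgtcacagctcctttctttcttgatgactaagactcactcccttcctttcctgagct
Casp4: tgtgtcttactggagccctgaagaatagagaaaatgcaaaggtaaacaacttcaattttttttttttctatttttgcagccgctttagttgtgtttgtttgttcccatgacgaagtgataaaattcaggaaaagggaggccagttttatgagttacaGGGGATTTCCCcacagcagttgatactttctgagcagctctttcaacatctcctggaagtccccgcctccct
The other motifs searched on both strands were the ISRE (in 2.98% of all windows), AP-1 (TGANTCA, 6.75%), GAS (TTCNNNGAA, 7.02%) and PU.1 (GAGGAAGT, 2.44%). Of the 8 listed genes with a window, *Nlrp1b* and *Pycard* each held a PU.1 match.

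*Casp1* was lower in cKO than in Ctrl libraries of either hemisphere, although not past the threshold. In mice 3541, 3545, 3546 and 3551 it stood at 50.9, 57.5, 50.3 and 49.5 CPM in Ctrl CL and at 45.5, 42.4, 46.2 and 43.7 CPM in Ctrl IL. In cKO CL it had 39.3, 37.8 and 41.8 CPM in mice 788, 791 and 3592, and in cKO IL 34.8, 40.6 and 41.3 CPM in mice 784, 791 and 3592. In CPM, each cKO library lay under each Ctrl library of the same hemisphere, and on the scaled log2 values this held in CL while the IL libraries overlapped. The difference was -0.39 in CL (SE 0.17, unadjusted p = 0.0420, limma adjusted p = 0.474) and -0.18 in IL (SE 0.13, unadjusted p = 0.206, limma adjusted p = 0.810). The Ctrl IL libraries also lay under the Ctrl CL libraries in CPM but not on the scaled values (-0.15, SE 0.16, limma adjusted p = 0.693), and the cKO libraries of the hemispheres overlapped.

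The mean IL against CL difference of *Casp4* differed in sign between the genotypes. In CPM, Ctrl had less in IL, with 17.4, 13.99, 18.3 and 16.6 CPM in CL and 12.2, 13.8, 11.7 and 13.3 CPM in IL (log2 fold change -0.28, SE 0.18, limma adjusted p = 0.438). On the scaled values the Ctrl hemispheres overlapped, and mouse 3545 was higher in IL (by 0.07) while the other 3 Ctrl mice were lower. In cKO it was higher in IL, with 14.6, 17.0 and 11.2 CPM in CL and 16.6, 22.0 and 14.4 CPM in IL (0.37, SE 0.22, limma adjusted p = 0.267). The cKO IL libraries lay above all Ctrl IL libraries in CPM and overlapped them on the scaled values (0.44, SE 0.21, limma adjusted p = 0.613). The interaction, which tests this difference between the genotypes, was 0.66 (SE 0.29, 95% interval 0.05 to 1.27, unadjusted p = 0.0363, limma adjusted p = 0.9999). *Casp4* was the 1 member of 9 with an unadjusted p under 0.05 in the interaction, where 2.60% of 18476 genes had one.

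*Casp8* encodes the initiator caspase of death receptors, which also restrains necroptosis and can cut gasdermin D. It had 210 to 264 CPM in Ctrl CL and 213 to 239 CPM in cKO CL, against 176 to 212 CPM in Ctrl IL and 177 to 195 CPM in cKO IL. The fold changes of IL against CL were -0.24 in Ctrl (SE 0.19, limma adjusted p = 0.534) and -0.20 in cKO (SE 0.11, adjusted p = 0.229). Neither was called, while the cKO difference was called on the deposited CPM without further scaling (-0.28, SE 0.08, limma adjusted p = 0.0427). The 95% interval of the difference between cKO and Ctrl was -0.44 to 0.35 in CL and -0.36 to 0.37 in IL.

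*Gsdmd* encodes gasdermin D and lies on chromosome 15 (GRCm38, 75862327 to 75867408, plus strand). In Ctrl CL it stood at 154, 159, 180 and 159 CPM and in Ctrl IL at 108, 109, 129 and 114 CPM, in mice 3541, 3545, 3546 and 3551. Each Ctrl mouse had less in IL, by 0.30 to 0.46 on the scaled log2 values. In cKO CL, mice 788, 791 and 3592 had 154, 140 and 174 CPM, and in cKO IL, mice 784, 791 and 3592 had 117, 132 and 112 CPM. Of the cKO mice with both hemispheres, 3592 had less in IL (-0.59) and 791 had more (0.11, against a lower value in CPM). In CPM the IL libraries lay under the CL libraries without overlap in both genotypes, and on the scaled values this held in Ctrl but not in cKO.

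The IL against CL difference of *Gsdmd* in Ctrl was -0.43 (SE 0.13, limma adjusted p = 0.0823) and was not called. With the mouse as a block it fell by 0.43 (SE 0.07, limma adjusted p = 0.00821), and it was also called on the deposited CPM without further scaling (-0.50, limma adjusted p = 0.0212). In cKO the difference was -0.29 (SE 0.13, limma adjusted p = 0.150; with the block -0.25, adjusted p = 0.367). Differences between cKO and Ctrl were -0.08 in CL (95% interval -0.41 to 0.26) and 0.08 in IL (95% interval -0.20 to 0.35). The interaction was 0.15 (SE 0.18, limma adjusted p = 0.9999).

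**Figure D4:**
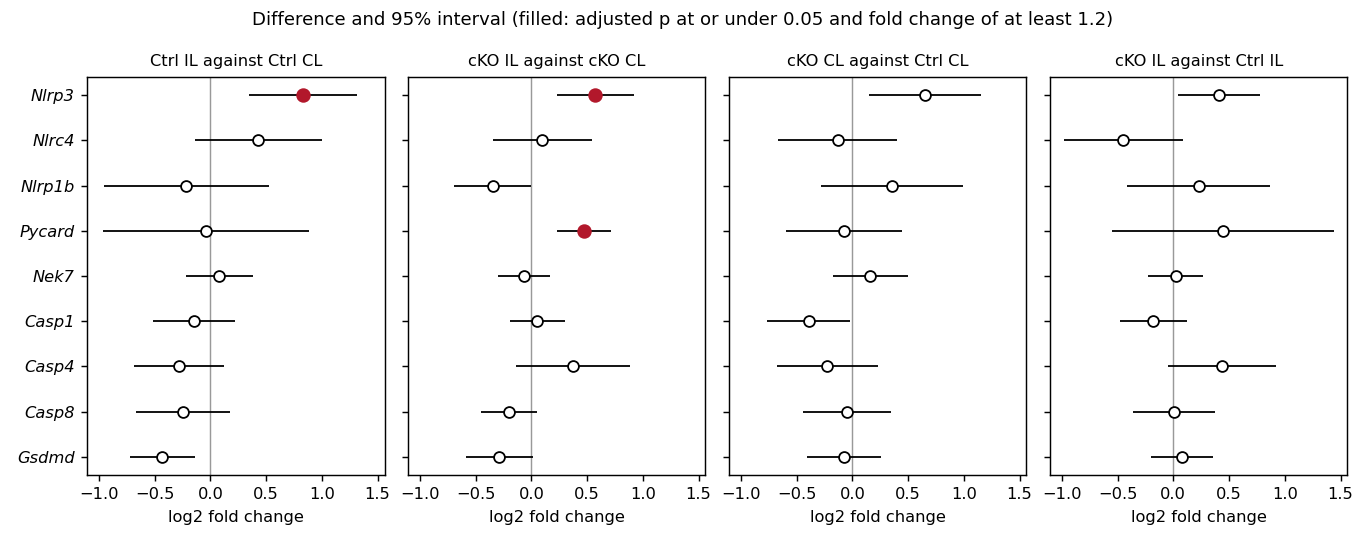
Log2 fold change (horizontal axes, with 95% interval) of the 9 genes in the 4 comparisons, with filled points for genes called by limma. The filled points are *Nlrp3* at 0.83 in Ctrl IL against CL, and *Nlrp3* at 0.57 and *Pycard* at 0.48 in cKO IL against CL, and no point is filled in the comparisons of cKO with Ctrl.

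Per length, the levels of the genes could be set side by side. In Ctrl CL, the means per kb of annotated exon were 80.9 CPM per kb for *Casp8*, 68.6 for *Gsdmd*, 34.8 for *Casp1*, 24.4 for *Nlrp3* and 23.4 for *Nek7*. *Casp4* had 4.47 CPM per kb, *Nlrp1b* 1.49 and *Nlrc4* 0.48. In cKO IL, *Nlrp3* had 51.7 ± 5.98 CPM per kb (SD, n = 3), within the spread of *Gsdmd* with 50.5 ± 4.27. *Pycard*, at 58.2 CPM per kb in Ctrl CL and 71.3 in cKO IL, is understated by this measure, because its annotated exons, with 3800 bases, span nearly the whole gene.

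For the question of how these genes differed between the genotypes, 0 of 9 were called in IL, where 0.658% of 16873 genes were called, and 0 of 9 in CL, where 0.875% of 16570 genes were called. At an unadjusted limma p under 0.05, 1 of 9 (*Nlrp3*) passed in IL, against 8.90% of all genes, and 2 of 9 (*Nlrp3* and *Casp1*) in CL, against 9.81%. In CPM, libraries did not overlap for 2 of 9 genes in IL (*Casp1* lower, *Casp4* higher in cKO), against 10.3% of all genes, and for 1 of 9 in CL (*Casp1*), against 10.01%. On the scaled values of the fits, an alternative chosen after seeing the data, these counts were 0 of 9 in IL (10.02% of all genes) and 1 of 9 in CL (*Casp1*, 9.24%). The median log2 fold change of the 9 was 0.08 in IL and -0.07 in CL, beside 0.01 and -0.06 over all genes tested. These comparisons share their Ctrl libraries with the IL against CL comparison, so the values are given side by side only. The interaction called 0 of 9 genes and 0 of 18476 genes in all, with 481 genes at an unadjusted p under 0.05.

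Between hemispheres, libraries did not overlap in CPM for 3 of 9 genes in Ctrl (*Casp1*, *Casp4* and *Gsdmd*, all lower in IL), against 17.7% of all genes. In cKO they did not overlap for 5 of 9 (*Nlrp3* and *Pycard* higher, *Nlrp1b*, *Casp8* and *Gsdmd* lower in IL), against 42.4%. On the scaled values, the counts were 2 of 9 in Ctrl (*Nlrp3* higher and *Gsdmd* lower in IL, against 15.1%) and 3 of 9 in cKO (*Nlrp3* and *Pycard* higher and *Nlrp1b* lower, against 41.9%). The median log2 fold change of the 9 was -0.15 in Ctrl and 0.05 in cKO, beside -0.04 and 0.02 over all genes tested.

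The other genes of the pathway were a list of 35 by role. In Ctrl IL against CL, 4 of 33 tested rose and 1 fell (background 6.56%), and when the mouse was a block 9 rose and 6 fell (20.5%). In cKO IL against CL, 10 of 33 rose and 4 fell (22.4% of all genes called), and with the block 9 rose and 1 fell (13.8%). Their median log2 fold change was 0.06 in Ctrl and 0.23 in cKO, beside -0.04 and 0.02 over all genes tested. Leaving out libraries in turn, the calls of *Mefv*, *Il1rn* and *Txnip* held in every such fit in Ctrl, as did those of *Mefv*, *Il1b*, *Il1rn*, *Ripk3*, *Mlkl*, *Zbp1* and *Txnip* in cKO.

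Among the cytokines and antagonists, *Il1rn*, the gene of the IL-1 receptor antagonist, had the largest increase of the list. It stood at 34.3, 17.4, 13.7 and 11.6 CPM in Ctrl CL and 123, 168, 115 and 90.4 CPM in Ctrl IL, and at 14.3, 35.4 and 35.8 CPM in cKO CL and 272, 302 and 174 CPM in cKO IL. It rose by 2.78 in Ctrl (SE 0.38, limma adjusted p = 0.00273) and 3.24 in cKO (SE 0.35, adjusted p = 0.00183), and IL and CL libraries did not overlap. *Il1b*, the main cytokine product, had 272 to 536 CPM in Ctrl CL and 612 to 1176 in Ctrl IL, and 386 to 455 CPM in cKO CL and 721 to 1084 in cKO IL. It rose in cKO (1.13, SE 0.19, limma adjusted p = 0.00664) and in Ctrl with the mouse as a block (1.18, SE 0.17, limma adjusted p = 0.00405), where the unblocked adjusted p was 0.0762. *Il18bp*, which neutralises IL-18, rose in cKO (0.98, SE 0.24, limma adjusted p = 0.0235; with the block 0.0578) and with the block in Ctrl (1.46, SE 0.15, limma adjusted p = 0.00105). Its cKO call held only without the CL library of mouse 3592 and was lost without any other cKO library, with adjusted p from 0.0660 to 0.0740. The decoy receptor gene *Il1r2* rose in Ctrl with the block (0.88, SE 0.20, limma adjusted p = 0.0229) and in cKO (1.35, SE 0.36, limma adjusted p = 0.0301), the latter a call lost without the CL library of mouse 788 (0.0834) or 791 (0.0526) or the IL library of mouse 784 (0.0594). *Il18* itself was not called, with 8.51 to 17.9 CPM over all libraries.

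Of 7 other sensors tested, 1 was called. *Mefv*, the gene of the sensor pyrin, rose from 1.304 to 3.01 CPM in Ctrl CL to 8.16 to 11.9 CPM in Ctrl IL (1.81, SE 0.24, limma adjusted p = 0.00230). In cKO it rose from 1.69 to 2.87 CPM to 7.37 to 16.3 CPM (2.12, SE 0.29, limma adjusted p = 0.00335). Between the genotypes no other sensor was called. The largest difference among them was that of *Naip6*, a member of the NAIP family, whose similar copies may split reads. It had 14.17 to 30.7 CPM in Ctrl CL and 33.5 to 66.7 CPM in cKO CL, and 12.7 to 31.5 CPM in Ctrl IL and 36.3 to 54.8 CPM in cKO IL, without overlap (in CL 1.34, SE 0.28, limma adjusted p = 0.0548; in IL 1.18, SE 0.255, adjusted p = 0.122). *Aim2*, the sensor of cytosolic DNA, had a difference of -0.71 in IL (SE 0.19, limma adjusted p = 0.224) and -0.98 in CL (SE 0.33, adjusted p = 0.316).

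Of the necroptosis genes beside *Casp8*, *Ripk3* and *Zbp1* rose in IL in both genotypes and *Mlkl* in cKO. *Ripk3*, the kinase of this pathway, rose in Ctrl (1.04, SE 0.26, limma adjusted p = 0.0401) and in cKO (0.95, SE 0.19, adjusted p = 0.0121), and in Ctrl its call was lost without the CL library of mouse 3545, 3546 or 3551 or the IL library of mouse 3541, 3545 or 3551, with adjusted p from 0.0776 to 0.132, and without the filter on low values (0.0788). *Zbp1*, a sensor of Z-form nucleic acids, had 2.99 to 9.54 CPM in Ctrl CL and 16.4 to 23.6 in Ctrl IL, and 3.99 to 14.2 CPM in cKO CL and 26.9 to 41.9 in cKO IL (in Ctrl 1.85, SE 0.36, limma adjusted p = 0.0151; in cKO 2.41, SE 0.41, adjusted p = 0.00660). The Ctrl call of *Zbp1* was lost without the IL library of mouse 3541 (limma adjusted p = 0.0563) or 3545 (0.0511). With the mouse as a block, both genes were called in Ctrl (limma adjusted p = 0.00321 for *Ripk3* and 0.000746 for *Zbp1*). The block also called both in cKO (limma adjusted p = 0.00578 and 0.00193). *Mlkl*, the gene of the pore-forming protein of necroptosis, rose in cKO (1.09, SE 0.21, limma adjusted p = 0.0101) and with the block in Ctrl (0.78, SE 0.15, limma adjusted p = 0.0133). *Fadd*, *Cflar* and *Ripk1*, the direct partners of caspase-8, were not called in either genotype.

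Of the other executioner genes, *Ninj1*, which ruptures the membrane after pores have formed, rose in cKO (0.89, SE 0.20, limma adjusted p = 0.0163) and with the block in Ctrl (0.82, SE 0.10, limma adjusted p = 0.00175). The cKO call was lost with the mouse as a random block (limma adjusted p = 0.0596), and without the CL library of mouse 788 (0.0517) or 791 (0.0503) or the IL library of mouse 791 (0.0614). *Gsdme*, the gene of another gasdermin, fell in cKO by 0.57 (SE 0.16, limma adjusted p = 0.0380; with the block 0.130), and this call held only without the CL library of mouse 791, with adjusted p from 0.0621 to 0.125 without each other cKO library and 0.0577 without the filter. With the block in Ctrl it fell by 0.53 (SE 0.15, limma adjusted p = 0.0435). *Casp12* fell in cKO by 0.89 (SE 0.19, limma adjusted p = 0.0149; with the block 0.0802), a call lost without the filter (0.0583) and without the IL library of mouse 784 (0.0638) or 3592 (0.0512). With the block in Ctrl, *Casp12* fell by 0.57 (SE 0.14, limma adjusted p = 0.0267). Its levels were near the pseudocount of 1, with 1.49 to 2.87 CPM in CL and 0.47 to 1.51 CPM in IL over both genotypes.

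Among the upstream genes, *Txnip*, a partner of thioredoxin and of NLRP3, fell in IL in both genotypes. It stood at 1083, 1318, 1436 and 1481 CPM in Ctrl CL and 437, 455, 616 and 407 CPM in Ctrl IL, and at 899, 758 and 949 CPM in cKO CL and 261, 237 and 239 CPM in cKO IL. The fold change was -1.41 in Ctrl (SE 0.16, limma adjusted p = 0.00131) and -1.73 in cKO (SE 0.13, adjusted p = 0.00183), in the direction opposite to *Nlrp3*. *Txnip* was also the only pathway gene of 34 tested that was called between cKO and Ctrl in IL (-0.93, SE 0.14, limma adjusted p = 0.0283), where 0.658% of all genes were called, and no pathway gene of 33 was called in CL by limma (background 0.875%). An unadjusted p under 0.05 was reached by 9 of 34 in IL, against 8.90% of all genes, and by 6 of 33 in CL, against 9.81%. The *Txnip* call between genotypes was lost without the filter on low values (limma adjusted p = 0.0631) and also without the Ctrl library of mouse 3541 or 3545 or without any 1 of the cKO libraries, with adjusted p from 0.0872 to 0.141. In CL, *Txnip* was also lower in cKO, without overlap in CPM (-0.62, SE 0.18, unadjusted p = 0.00584, limma adjusted p = 0.212). Its interaction was -0.31 (SE 0.20, limma adjusted p = 0.9999), so a difference confined to IL was not shown. *Gbp5*, which promotes NLRP3 assembly, rose in cKO IL (0.81, SE 0.19, limma adjusted p = 0.0190; with the block 0.0583), and *Card6* fell (by 0.78, SE 0.19, limma adjusted p = 0.0207; with the block 0.0767). The *Gbp5* call was lost without the filter (limma adjusted p = 0.0581) and without the IL library of mouse 784 (limma adjusted p = 0.0570) or 791 (0.0681). The *Card6* call was lost without the CL library of mouse 788 (limma adjusted p = 0.0604) or the IL library of mouse 784 (0.0665) or 3592 (0.0646).

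**Figure D5:**
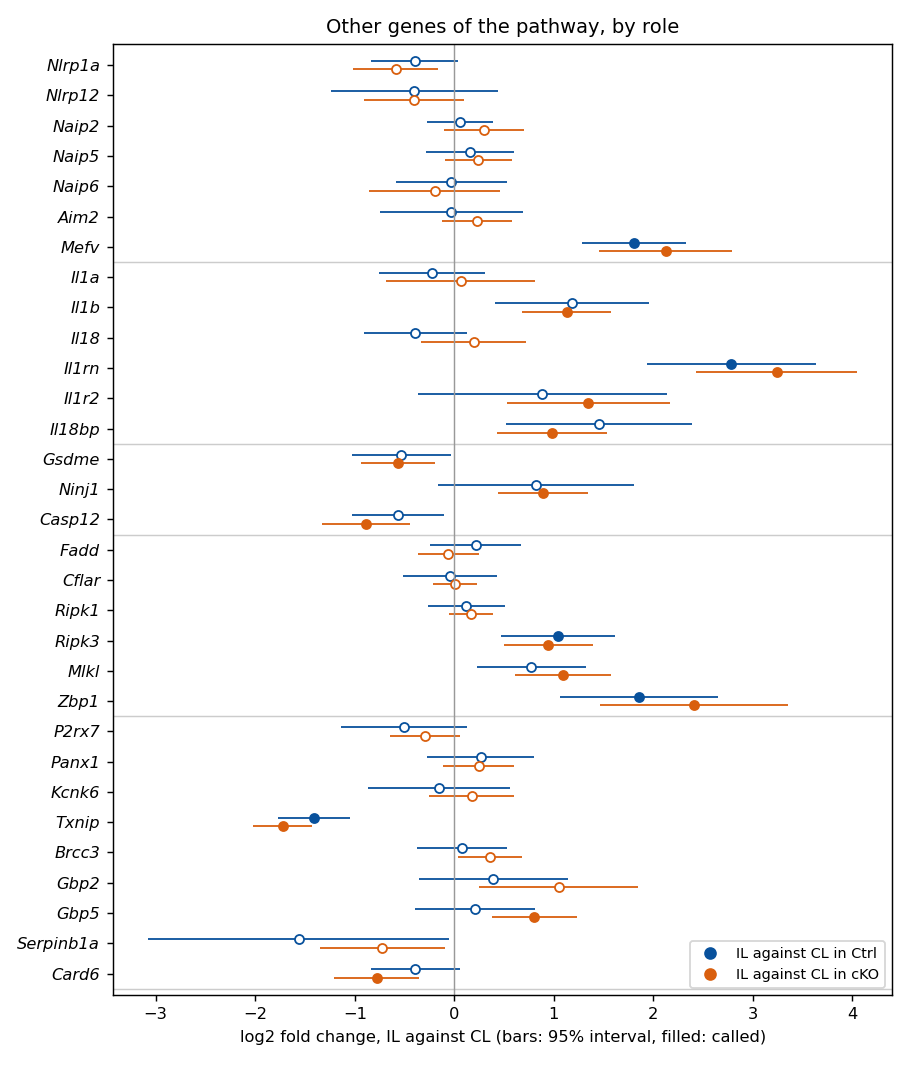
Log2 fold change of IL against CL with 95% interval for the pathway genes shown, in Ctrl and in cKO, with grey lines between the roles and filled points for genes called by limma without the block. *Il1rn*, at 2.78 and 3.24, lies farthest to the right and *Txnip*, at -1.41 and -1.73, is the gene called lower in both genotypes.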

How the data were processed

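CD11b+ microglia/macrophages were sorted with magnetic beads, and Smart Seq v4 libraries were sequenced in pairs of reads. Per the labels, the authors aligned reads with STAR to mm10 and used Partek Flow 8.0. The deposited table is named raw counts, but the authors' values are CPM, since each of the 14 libraries sums to 1000000. Between 79.0% and 83.6% of values under 100 reads were whole multiples of 1 step per library (tolerance 0.03), too few to recover whole reads, so a test on log2 values replaced any count test, also beside a p that the authors gave. The authors' own tables of fold changes and p-values were not used. No column was left without a sample.

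CPM were scaled by an unweighted trimmed mean of M-values (30% of M and 5% of A trimmed, factors 0.879 to 1.15 over all libraries), and log2(CPM + 1) was fitted by limma 3.58.1 in R 4.3.3 with a trend and empirical Bayes moderation. Fold changes on this scale understate changes of genes near 1 CPM. A gene was tested if its CPM was at least that of 10 reads at median depth in a number of libraries no smaller than the smaller group, and if it had 15 reads in all. The p-values were adjusted over all genes tested. Non-overlap was judged on the deposited CPM and again on the scaled values. Only the libraries compared entered a fit, and all 14 entered the interaction. The depth of 12.2 to 41.6 M reads per library, estimated from the step between low values, gives 1 read a worth of 0.024 to 0.0818 CPM. Levels per kb used the union of exons of GENCODE M21 on GRCm38, the build of the files. Copies were searched with BLAST 2.17.0 (at least 100 bases), figures and sequences were handled in Python 3.11.15, and the fits were tested on simulated data.

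Libraries pair by mouse number, which the labels give. Deviations from group means correlated in all 6 same-mouse pairs (Pearson's r across genes 0.18 to 0.61, against -0.54 to 0.50 in 19 pairs of different mice), so the mouse was fitted as a block as an alternative. cKO mice 784 and 788 were taken as different mice. The study counts its replicates in mice, and for cKO it counts fewer mice than the labels have numbers.

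The members, the 35 pathway genes, the markers and the alternatives were chosen with earlier results of these data known. All 9 members are named in each comparison, and pathway genes when called in at least 1 comparison or when set beside a member. *Aim2*, *Naip6*, *Ly6c2* and the other monocyte markers, *Il18*, *Nlrp1a*, *Fadd*, *Cflar*, *Ripk1*, *Nr4a1* and the immediate early genes were named after their values were seen. The targeted gene and some pathway genes are not reported here by name, and the latter still enter the counts. The alternatives were other scalings, pseudocounts and filters, the block, and leaving out each library.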

Additional observations from a re-analysis of the deposited data

Results flagged for a closer look

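Of 46 groups of 4 libraries examined for a library far from the others, 5 had one by Dixon's criterion, where chance gives about 1 in 20. In Ctrl CL, mouse 3546 had 3.81 CPM of *Nlrc4*, against 1.62 to 1.95 CPM in the other mice. The same mouse had 147.5 CPM of *Pycard* in CL, against 243.2 to 249.0 CPM, and 87.21 CPM in IL, against 248.8 to 272.8 CPM. Mouse 3541 had 9.544 CPM of *Zbp1* in Ctrl CL, against 2.99 to 3.96 CPM, and 23.56 CPM in Ctrl IL, against 16.4 to 17.6 CPM. The cause of these values was not tested.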

How the results depend on the processing

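Calls of the 9 genes between cKO and Ctrl stayed at 0 in each alternative in both hemispheres and in the interaction. With libraries left out in turn, 0 to 1 of the 9 were called in Ctrl IL against CL and 0 to 2 in cKO IL against CL. Of the 9, 0 were called in Ctrl IL against CL with upper-quartile scaling, with pseudocounts of 0.1 and 0.5 and without the filter, and *Nlrp3* had adjusted p (limma) of 0.0566, 0.0520, 0.0504 and 0.101 there and 0.128 on the deposited CPM. With the mouse as a random replicate block, 2 were called in Ctrl IL against CL and 1 in cKO IL against CL, where *Pycard* had an adjusted p of 0.277. With the fixed replicate block, the counts of the 9 were 2 in Ctrl and 1 in cKO. On the deposited CPM, 4 were called in cKO IL against CL, namely *Nlrp3*, *Pycard*, *Casp8* and *Gsdmd*. Beside the calls given with the results, the pairing by mouse changed no other call of the 9 genes.

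Over all genes, 69 were called in IL between cKO and Ctrl without the filter and 190 with the random replicate block, and 290 in CL with that block. In Ctrl IL against CL, 590 were called without the filter, 4256 with the random and 3357 with the fixed block, and in cKO IL against CL 2310 with the fixed block. The random block called 3 genes in the interaction. Libraries left out in turn gave 46 to 284 genes in IL, 70 to 165 in CL, 487 to 1413 in Ctrl IL against CL, 1881 to 3537 in cKO IL against CL and 0 to 1 in the interaction. On the deposited CPM the calls were 625 higher and 814 lower in Ctrl IL against CL (590 and 484 with the scaling used) and 1647 higher and 2146 lower in cKO IL against CL (2150 and 1596). Without the filter, 63 were higher and 35 lower in CL (77 and 68 with it).

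The sign of small, uncalled differences changed as follows, and the cause was not tested. For *Casp8* in IL between cKO and Ctrl it was -0.006 on the deposited CPM and -0.013 with upper-quartile scaling. With the latter scaling, the CL differences between cKO and Ctrl were 0.004 for *Pycard*, 0.031 for *Casp8* and 0.002 for *Gsdmd*, the Ctrl IL against CL difference of *Pycard* was 0.015 and the interaction of *Casp8* was -0.048. *Casp1* in cKO IL against CL was -0.030 on the deposited CPM. Leaving out libraries gave, for cKO IL against Ctrl IL, -0.017 to 0.632 for *Pycard*, -0.082 to 0.108 for *Casp8*, -0.035 to 0.067 for *Nek7* and -0.024 to 0.170 for *Gsdmd*. For cKO CL against Ctrl CL, these ranges were -0.298 to 0.046 for *Pycard*, -0.139 to 0.052 for *Casp8*, -0.247 to 0.038 for *Nlrc4* and -0.131 to 0.009 for *Gsdmd*. For Ctrl IL against CL, they were -0.258 to 0.422 for *Pycard* and -0.455 to 0.036 for *Nlrp1b*. For cKO IL against CL, they were -0.021 to 0.123 for *Casp1* and -0.034 to 0.211 for *Nlrc4*, and for the interaction -0.399 to 0.097 for *Nlrp1b* and -0.052 to 0.155 for *Casp8*. Without both libraries of Ctrl mouse 3546, an alternative chosen after seeing the data, *Pycard* in Ctrl IL against CL was 0.200 and the interaction of *Casp8* was -0.004.

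The groups hold 3 or 4 libraries, and the fixed block in cKO rests on 2 mice with both hemispheres.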

Other observations

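Among pathway genes not described above, and named after their values were seen, some were called only with the mouse as a block. *P2rx7*, the ATP-gated channel gene upstream of NLRP3, fell by 0.50 in Ctrl IL against CL (SE 0.10, limma adjusted p = 0.0140) and was lower in IL in 6 of 6 mice. *Serpinb1a*, an inhibitor of neutrophil proteases and of inflammatory caspases, fell by 1.56 there (SE 0.38, limma adjusted p = 0.0275), beside neutrophil marker sums of 467 to 6106 CPM in Ctrl CL and 146 to 844 CPM in Ctrl IL. *Gbp2*, an interferon-induced guanylate-binding protein gene, rose by 1.19 in cKO IL against CL with the block (SE 0.16, limma adjusted p = 0.00394) and was higher in IL in 6 of 6 mice. *Naip5*, which detects flagellin for NLRC4, was not called, and it was higher in IL in 6 of 6 mice on the scaled log2 values (by 0.02 to 0.44) but lower in 3 of the 6 in CPM.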
